A study of Homo sapiens with 8 samples.

Results

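The genes described here are 45 of the 35940 gene symbols in the deposited table. They comprise 20 genes of cytosolic tRNA synthetases, 10 enzymes of amino acid and one-carbon synthesis, 5 amino acid transporters, 6 transcription factors of the amino acid response and 4 stress effectors. They were chosen by the measured TPM of 1 of them: AARS, the alanyl-tRNA synthetase gene, was lower at 72 h, and the rest are its family and pathway. The values of AARS are therefore given as a description, without a test. The comparison of 72 h with 34 h is likewise a description for every member: no p-value is given for it, and nothing is read from its calls. All 45 genes were found, in 51 rows of the table, and all 45 were among the 14908 genes with at least 1 TPM (the library's transcripts scaled by gene length to a common total) in at least 2 of the 8 libraries.

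Transcripts were measured by sequencing of poly(A)-enriched RNA from wild-type ESI017, a human embryonic stem cell line, on its way to a posterior neural fate. All cells were kept in N2B27 medium with 10 µM SB and 100 nM LDN, and 300 ng/mL recombinant WNT3A protein was added at 34 h of differentiation. The 4 groups are the time points 34 h (the time of WNT3A addition), 42 h (8 h with WNT3A), 50 h (16 h) and 72 h (38 h). Each had 2 libraries, replicate 1 and replicate 2, the second from an independent run of the protocol, all in 1 cell line. Cells without WNT3A were not analysed here, so time in culture and WNT3A cannot be told apart in any comparison.

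Aminoacyl-tRNA synthetases join each amino acid to its tRNA and so supply the ribosome. When charged tRNAs run short, or under other stresses that lead to phosphorylation of the initiation factor eIF2, general translation falls while translation of ATF4 mRNA rises. ATF4, a basic leucine zipper transcription factor, then raises genes for amino acid synthesis, amino acid uptake and many cytosolic synthetases, pairing with C/EBP family proteins on a composite promoter element. Mitochondrial synthetases are encoded by separate genes for the most part. GARS and KARS each encode both the cytosolic and the mitochondrial enzyme.

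That composite element, the C/EBP-ATF response element, has the core TGATGNAA, and it is shown here because it is what many of the members share in sequence. RefSeq promoter windows on GRCh38.p14, from 250 bases before to 50 bases after a start site, were matched for 37 of the 45 members. DARS, LARS, VARS, YARS, PSPH, SHMT2, PYCR1 and SLC7A11 had none. TGATGNAA on either strand was present in a window of 14 of the 37 members (37.8%), against 299 of the 11034 tested genes with a window (2.71%). By window, 14 of 59 member windows held it (23.7%), against 3.62% of 35116 windows of the same length. TGATGCAA, which is 1 of the 4 forms of TGATGNAA, was present for 10 of the 37 members (27.0%) and for 0.743% of the tested genes. Of the 14 matches 9 began within 50 bases of the start site. A match describes these letters only; binding was not measured. The 9 stretches below are 30 bases long, 5′ to 3′ on the strand that carries the element, with the element in capitals; they belong to AARS and to the synthetases, the synthetic enzyme and the stress effector whose values recur below.

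AARS (chr16:70289675-70289704, plus strand): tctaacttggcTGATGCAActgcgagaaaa
CARS (chr11:3057407-3057436, plus strand): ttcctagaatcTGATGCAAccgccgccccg
TARS (chr5:33440956-33440985, minus strand): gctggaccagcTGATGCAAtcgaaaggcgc
MARS (chr12:57488053-57488082, minus strand): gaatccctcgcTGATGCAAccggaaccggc
IARS (chr9:92293692-92293721, plus strand): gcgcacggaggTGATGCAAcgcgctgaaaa
NARS (chr18:57621804-57621833, minus strand): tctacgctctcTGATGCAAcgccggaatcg
GARS (chr7:30594834-30594863, minus strand): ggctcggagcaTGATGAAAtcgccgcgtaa
ASNS (chr7:97872458-97872487, minus strand): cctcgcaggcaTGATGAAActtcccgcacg
CHAC1 (chr15:40953251-40953280, minus strand): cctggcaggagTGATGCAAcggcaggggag

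The 6 synthetase stretches other than AARS all begin within 50 bases of a start site, and 5 of those 6 have C at the open base. Among synthetases with a window, the element was found for 7 of 10 that are usually listed as ATF4 targets and for 0 of the other 6. The lists and the choice of members drew on general knowledge, in which this element may itself have counted. These counts are therefore a description only. The element was also found for the transporter genes SLC3A2, SLC1A5 and SLC1A4 and for the transcription factor genes ATF3 and CEBPG. The remaining 23 members with a window, SLC7A5, PSAT1, PHGDH, WARS, ATF5 and TRIB3 among them, had no match in these windows.

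The summed level of the 45 genes was somewhat lower at 50 h, 16 h after WNT3A was added, and lower again at 72 h. Together they held 7595 and 7768 TPM in the 34 h libraries, 7627 and 7270.0 TPM at 42 h, 7035 and 6849 at 50 h, then 4791 and 4842 at 72 h. Both 72 h libraries lay below all 6 earlier ones. In bulk RNA, a smaller share of cells that express a gene and less of its RNA per cell cannot be told apart.

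By limma, 1 of the 44 members other than AARS was lower at 42 h than at 34 h and 0 were higher, where 0.792% of all genes tested were called lower. At 50 h against 34 h 5 members were lower and 0 higher, beside 2.74% of all genes called lower. In that comparison 14 of the 44 had an unadjusted p under 0.05, the median log2 change was -0.11, and 21 had both 50 h libraries below both 34 h libraries, as 20.1% of all genes did. Between 42 h and 50 h 0 of the 44 passed in either direction, with 8 at an unadjusted p under 0.05, beside 0.0335% of all genes called lower. Between 50 h and 72 h 23 of the 44 were lower (52.3%) and 0 higher. The share of all genes called lower in that comparison was 4.41%, and among the 8963 genes with a mean of at least 10 TPM it was 4.95%. The 50 h to 72 h comparison shares its 72 h libraries with the AARS values that chose the genes.

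The median log2 change over the 44 members other than AARS, on the scale of log2(TPM + 1), was -0.0068 at 42 h against 34 h, -0.07 at 50 h against 42 h and -0.49 at 72 h against 50 h, where the median over all genes tested was 0.01, 0.03 and 0.01. The last interval was 22 h long and the first 2 were 8 h each. The medians of the first 2 intervals are not ordered by these data: over all 45, with 1 library left out in turn, they ranged from -0.055 to -0.0058 and from -0.12 to -0.044. Of the 44, 37 had both 72 h libraries below both 50 h libraries, an arrangement seen in 25.9% of all genes. At 72 h against 34 h 29 of the 44 members were called lower, beside 11.3% of all genes; the choice of members used this contrast, and nothing is read from the count.

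The count of 23 at 72 h against 50 h rested in part on single libraries. It was 14 without replicate 2 at 50 h, 11 without replicate 1 at 72 h and 13 without replicate 2 at 72 h. Without replicate 1 at 72 h 5 synthetase genes, 3 synthetic enzymes, 1 transporter, 1 transcription factor and 1 stress effector passed, in place of 8, 6, 3, 3 and 3. A core of 11 genes passed in every one of the 18 alternative fits: the synthetase genes CARS, GARS, TARS, WARS and YARS, the synthetic enzymes ASNS, PSAT1 and MTHFD2, the transporter SLC7A5, the transcription factor ATF5 and the glutathione-degrading enzyme CHAC1.

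**Figure D1:**
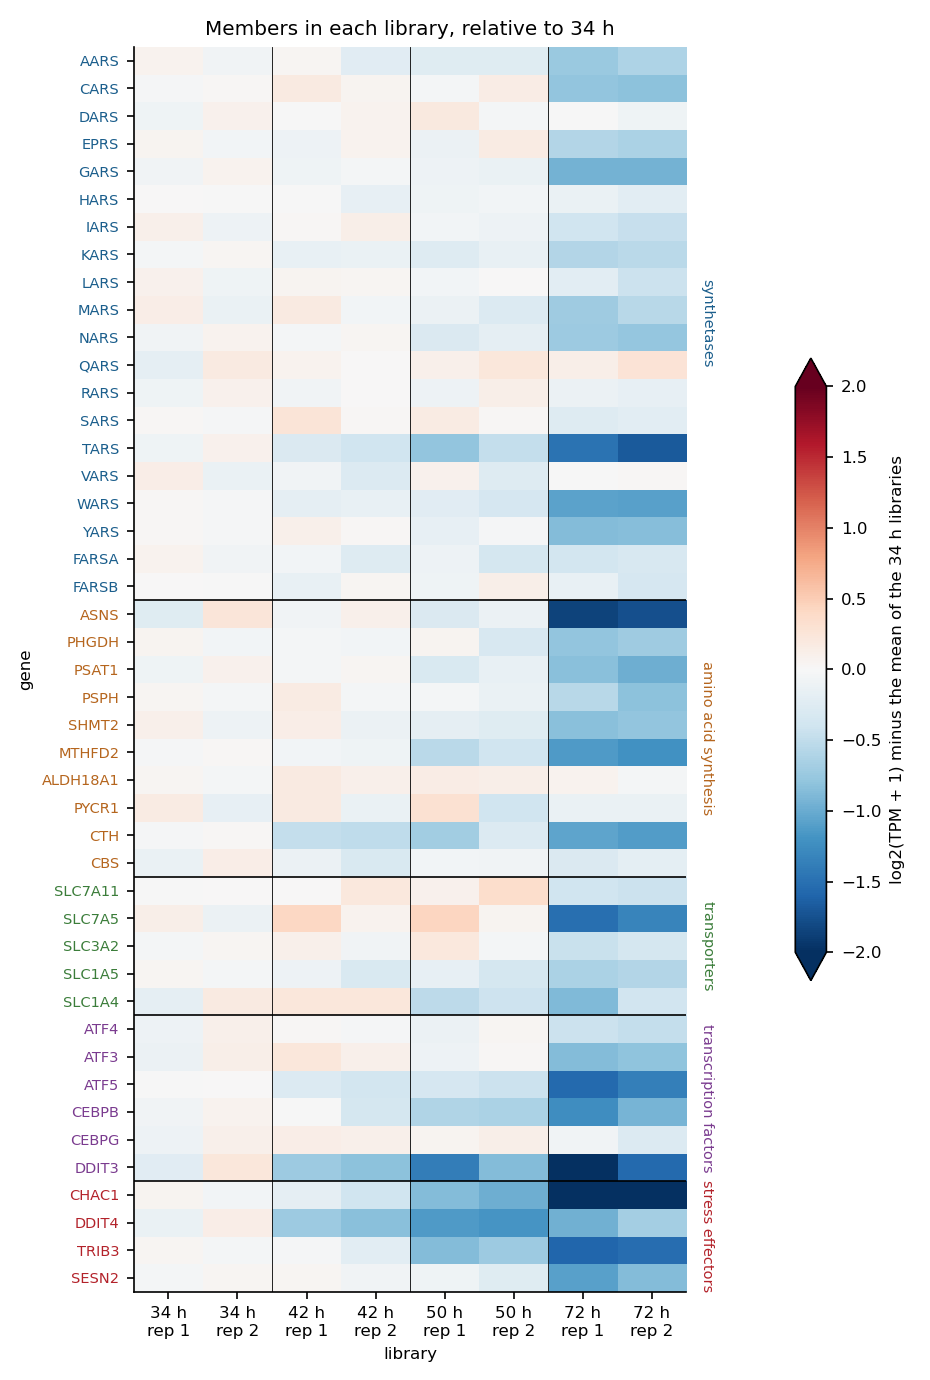
Heat map of the 45 members (rows, ordered by role) in the 8 libraries (columns), coloured by log2(TPM + 1) minus the mean of the 2 libraries at 34 h; values beyond the ends of the colour scale have the end colour. Most rows are pale through 50 h and blue in both 72 h columns, while DDIT3 and the stress effectors CHAC1, DDIT4 and TRIB3 are already blue at 50 h, and QARS, VARS, DARS and ALDH18A1 stay pale throughout.

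AARS lies on the minus strand of chromosome 16, from 70252295 to 70289543 (GENCODE v29 on GRCh38). It had 206 and 188 TPM at 34 h, 201 and 168 at 42 h, 167 and 166 at 50 h, then 117 and 129 at 72 h. The level was thus lowest at 72 h, where its mean was 62.5% of that at 34 h and 74.0% of that at 50 h, without overlap between the libraries of 50 h and 72 h. Of the other 19 synthetase genes 6 had a lower ratio of 72 h to 34 h, from 33.2% for TARS through WARS, GARS, YARS and CARS to 59.1% for NARS.

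Among the other 19 synthetase genes 8 fell between 50 h and 72 h: TARS, CARS, GARS, WARS, YARS, EPRS, NARS and KARS. Of all genes 4.41% were called lower. The median log2 change over the 19 other than AARS was -0.35. TARS, the threonyl-tRNA synthetase gene (chromosome 5, 33440696 to 33469539, plus strand), moved furthest. Its level was 293 and 331 TPM at 34 h, 256 and 235 at 42 h, 179.7 and 224 at 50 h, then 111 and 96.4 at 72 h. Each time point after 34 h lay below the one before it with no overlap of libraries. TARS had a log2 change of -0.63 ± 0.13 (SE) at 50 h against 34 h (an adjusted p of 0.0253 by limma), and of -0.95 ± 0.13 at 72 h against 50 h (0.00434; -0.69 and -1.21 in replicates 1 and 2). By mean TPM, TARS went from rank 1 of the 20 synthetase genes at 34 h to rank 12 at 72 h. The 50 h call of TARS was lost without either 34 h library, without replicate 1 at 50 h, in a fit of only the compared time points, with all low genes kept and without a mean trend in the variance, with adjusted p from 0.0660 to 0.167.

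WARS, for tryptophan, had 279 and 269 TPM at 34 h, 242 and 247 at 42 h, 235 and 218 at 50 h, then 130.1 and 128 at 72 h. The 72 h replicates were nearly equal and far below the rest, with a log2 change from 50 h of -0.80 ± 0.08 (limma adjusted p 0.000954). GARS, for glycine, stayed between 264 and 306 TPM in the 6 libraries up to 50 h and had 150.4 and 150.2 TPM at 72 h (-0.83 ± 0.08, adjusted p 0.000954). YARS, for tyrosine, had 195 to 236 TPM up to 50 h and 119 and 121 TPM at 72 h (-0.77 ± 0.08, 0.00162). CARS, for cysteine, had 76.9 to 88.9 TPM and then 45.1 and 43.9 TPM (-0.86 ± 0.10, 0.00207); it sums 2 Ensembl rows, and both were lower at 72 h than in any earlier library. These 4 genes thus had between 54.3% and 58.6% of the 50 h mean at 72 h. At 50 h against 34 h none of them passed, except WARS with trimmed mean rescaling (0.0467).

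The calls of the other 3 were less firm. EPRS, the fused glutamyl- and prolyl-tRNA synthetase, had 93.7 and 114 TPM at 50 h, then 67.6 and 65.2 at 72 h (-0.63 ± 0.12, limma adjusted p 0.0175). NARS, for asparagine, had 192 and 207 TPM and then 141 and 137 TPM (-0.51 ± 0.09, 0.0116). Both calls were lost without replicate 2 at 50 h, without either 72 h library and with the time points fitted alone, with adjusted p from 0.0800 to 0.104 for EPRS and from 0.0603 to 0.0816 for NARS. KARS, for lysine, had 159 and 171 TPM at 50 h, then 127 and 130.3 at 72 h (-0.36 ± 0.08, 0.0363), and its call was lost in 11 of the 18 alternatives, those without any 1 library among them, with adjusted p from 0.0574 to 0.197.

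MARS, IARS, SARS and LARS, for methionine, isoleucine, serine and leucine, had log2 changes of -0.44, -0.35, -0.33 and -0.30 from 50 h to 72 h, with limma adjusted p of 0.0729, 0.0656, 0.104 and 0.124. All 4 had both 72 h libraries below both at 50 h, as 25.9% of all genes did. IARS passed with trimmed mean rescaling (0.0446) and under none of the other alternatives run. In contrast to TARS, QARS (for glutamine) had 149 and 192 TPM at 34 h, 177 and 170.1 at 42 h, 181 and 198 at 50 h, then 184 and 205 at 72 h. Its 72 h libraries overlapped those of 50 h and of 34 h (0.04 ± 0.13 from 50 h to 72 h, adjusted p 0.90), and by mean TPM it was rank 11 of the 20 synthetase genes at 34 h and rank 1 at 72 h. VARS, for valine, had 102 and 79.2 TPM at 50 h, then 94.9 and 96.7 at 72 h (0.09 ± 0.14, 0.758); it sums 6 Ensembl rows, 1 of them listed at 0 in all libraries, so its level is uncertain. DARS, HARS, RARS, FARSA and FARSB had changes between -0.26 and -0.11, with adjusted p from 0.303 to 0.610. FARSA and FARSB encode the subunits of one phenylalanyl enzyme, and their ratio in TPM ranged from 3.5 to 5.21 over the 8 libraries, with 4.23 and 4.99 at 72 h.

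Split by a list from general knowledge, the 12 synthetase genes usually listed as ATF4 targets held 2221 and 2266 TPM at 50 h, then 1499 and 1485 at 72 h. The other 8 held 781 and 778 TPM and then 714 and 731 TPM. Between 50 h and 72 h 4.41% of all genes were called lower. Of the 11 tested genes of the first list (AARS left out) 7 were lower, with a median log2 change of -0.63. Of the 8 others 1 was lower, KARS, with a median of -0.12. With 1 library left out in turn these counts were 5 to 7 and 0. The difference between the lists was not tested, and the split was made with results of these libraries known. Of the 8 enzymes that assemble into the multi-synthetase complex 2 were lower, EPRS and KARS (median -0.33), and 6 of the 11 tested free enzymes (-0.51, AARS left out). With 1 library left out in turn 0 or 1 of the 8 passed, and 0 without replicate 2 at 50 h or either 72 h library. The 3 scaffold genes of that complex, AIMP1, AIMP2 and EEF1E1, had 0 calls in the 72 h against 50 h test, with 1 at an unadjusted p under 0.05.

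Genes of the 17 mitochondrial synthetases gave 0 calls by limma from 50 h to 72 h, beside 4.41% of all genes called lower, so the count is near that share; 1 had an unadjusted p under 0.05, and 0 were called at 42 h or 50 h against an earlier time. In the comparison of 72 h with 34 h VARS2, for mitochondrial valine, was called higher (0.76 ± 0.16), and 0 were lower. There 11.3% of all genes were called lower and 24% in either direction, and nothing is read from these calls. The summed level of the 17 genes was 463 and 448 TPM at 34 h, 487 and 474 at 50 h, then 472 and 484 at 72 h. The median log2 change from 50 h to 72 h was -0.07. The difference from the cytosolic synthetases was not tested.

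**Figure D2:**
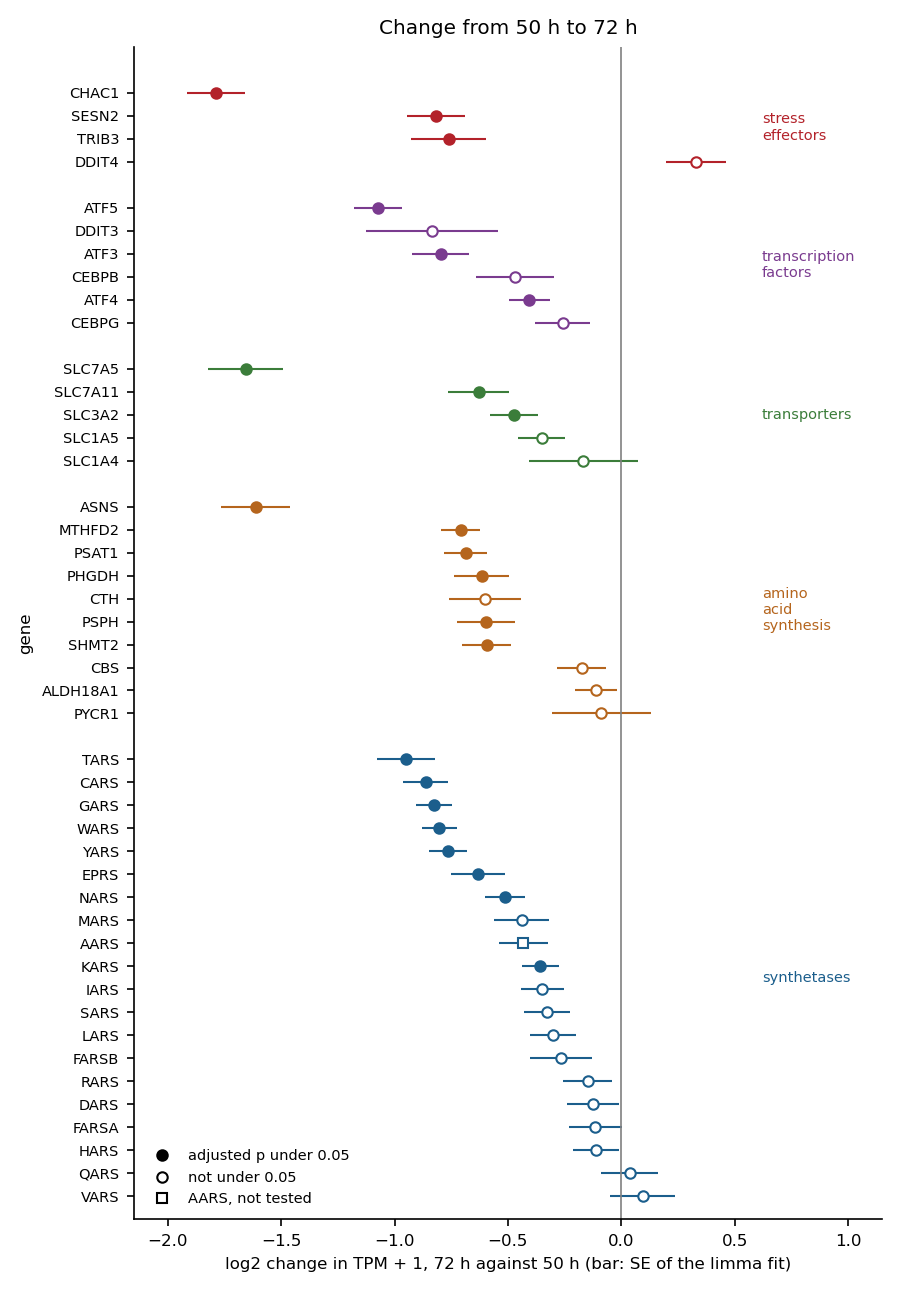
Log2 change of TPM + 1 from 50 h to 72 h for each member, ordered within its role; bars are the standard error of the limma fit over all 8 libraries. Filled circles mark the 23 genes with an adjusted p under 0.05, open circles the 21 without, and the open square AARS, which was not tested. CHAC1, SLC7A5 and ASNS lie furthest to the left, and QARS, VARS and DDIT4 to the right of 0.

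Of the 10 enzymes of amino acid synthesis 6 fell between 50 h and 72 h, beside 4.41% of all genes called lower. The median log2 change over the 10 was -0.60. ASNS, the asparagine synthetase (chromosome 7, 97852118 to 97872542, minus strand), had 258 and 359 TPM at 34 h, 289 and 326 at 42 h, 249.6 and 282 at 50 h, then 83.2 and 89.0 at 72 h. Its earlier libraries overlapped one another and the 72 h libraries stood far below them, at 32.4% of the 50 h mean. The log2 change was -1.61 ± 0.15 (limma adjusted p 0.000862; -1.57 and -1.65 in replicates 1 and 2).

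The serine pathway and its one-carbon branch followed. PHGDH, PSAT1 and PSPH catalyse the steps from 3-phosphoglycerate to serine, SHMT2 splits serine in the mitochondrion, and MTHFD2 oxidises the one-carbon unit there. PHGDH, the most abundant of the enzymes, had 657 and 611 TPM at 34 h, 614 and 609 at 42 h, 661 and 504 at 50 h, then 365 and 388 at 72 h (-0.62 ± 0.12 from 50 h, limma adjusted p 0.0204). PSAT1 had 429 and 476 TPM at 50 h, then 294 and 268 at 72 h (-0.69 ± 0.09, 0.00477). PSPH had 58.7 and 54.7 TPM and then 40.8 and 33.9 TPM (-0.60 ± 0.13, 0.0281), and SHMT2 254 and 242 TPM and then 162 and 167 TPM (-0.59 ± 0.11, 0.0151). All 4 levels at 72 h were between 62% and 66.1% of the 50 h mean. MTHFD2 began earlier: it had 222 and 232 TPM at 34 h, 218 and 213 at 42 h, 157 and 173 at 50 h, then 103 and 97.4 at 72 h. It fell by 50 h (-0.46 ± 0.09 against 34 h, limma adjusted p 0.0173) and again between 50 h and 72 h (-0.71 ± 0.09, 0.00243).

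The 72 h calls of PHGDH, PSPH and SHMT2 were lost without either 72 h library, those of PSPH and SHMT2 also without either 50 h library, and each under 1 to 3 further settings, with adjusted p from 0.0525 to 0.164. The 50 h call of MTHFD2 was lost without either 34 h library, without replicate 1 at 50 h and in 2 more alternatives, with adjusted p from 0.0665 to 0.121.

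The 2 proline enzymes gave no call. ALDH18A1, which makes the proline precursor pyrroline-5-carboxylate, stayed between 68.8 and 80.6 TPM in all 8 libraries (-0.11 ± 0.09 from 50 h to 72 h, limma adjusted p 0.528). PYCR1, which completes proline, had 162 and 99.1 TPM at 50 h and 119 TPM in both 72 h libraries (-0.09 ± 0.22, 0.860), so its replicates at 50 h spanned the 72 h level. CTH, which releases cysteine from cystathionine, had 22.3 and 23.2 TPM at 34 h, 16.1 and 15.8 at 42 h, 13.7 and 18.7 at 50 h, then 10.4 and 9.98 at 72 h. CTH was called in the comparison of 72 h with 34 h, which chose the members (-1.08), and in none of the other 4 (-0.60 ± 0.16 from 50 h to 72 h, adjusted p 0.0592), though the last did without replicate 1 at 50 h (0.0297) and with a filter at a mean of 5 TPM (0.0472). CBS, which makes cystathionine, had 301 and 297 TPM at 50 h, then 257 and 273 at 72 h (-0.18 ± 0.11, 0.389). Its near-identical copy CBSL had a mean of 147 TPM over the 8 libraries, so how reads were divided between them is uncertain. Their sum was 455 and 427 TPM at 50 h, then 376 and 398 at 72 h.

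Of the 5 amino acid transporter genes 3 fell between 50 h and 72 h, beside 4.41% of all genes called lower. SLC7A5 encodes LAT1, the exchanger for large neutral amino acids, and SLC3A2 its heavy chain 4F2hc, which also pairs with the cystine carrier SLC7A11. SLC7A5 (chromosome 16, 87830023 to 87869488, minus strand) had 213 and 179.6 TPM at 34 h, 259 and 205 at 42 h, 265 and 203 at 50 h, then 68.1 and 78.0 at 72 h. Its 50 h libraries overlapped those of 34 h, and at 72 h it stood at 31.2% of the 50 h mean (-1.66 ± 0.16, limma adjusted p 0.00104; -1.94 and -1.37 in replicates 1 and 2). SLC3A2 had 401 and 335 TPM at 50 h, then 255 and 273 at 72 h (-0.47 ± 0.11, 0.0336), and SLC7A11 had 30.4 and 36.9 TPM and then 21.4 and 21.1 TPM (-0.63 ± 0.13, 0.0271). The ratio of SLC3A2 to SLC7A5 in TPM lay between 1.43 and 1.97 in the 6 libraries up to 50 h and was 3.74 and 3.5 at 72 h. That ratio was higher in both 72 h libraries than in any other, whereas SLC3A2 to SLC7A11 was 9.10 to 13.2 up to 50 h and 11.9 and 12.9 at 72 h.

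SLC1A5, the ASCT2 glutamine carrier, had 204 and 178 TPM at 50 h, then 147 and 152 at 72 h (-0.35 ± 0.10, limma adjusted p 0.0825). SLC1A4, its ASCT1 relative, was at 1.22 to 3.79 TPM throughout (-0.17 ± 0.24, 0.740). The SLC3A2 call was lost in 8 alternatives (adjusted p 0.0573 to 0.193), which included every fit without a library of 34 h or 72 h and the fit without replicate 1 at 50 h. That of SLC7A11 was lost without replicate 2 at 50 h, without either 72 h library and with the time points alone (0.0988 to 0.135). Reads of SLC7A5 can also match the pseudogenes SLC7A5P1 and SLC7A5P2, which had means of 3.38 and 6.98 TPM.

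The 6 transcription factor genes all had both 72 h libraries below both 50 h libraries, as 25.9% of all genes did. Of the 6, 3 passed, beside 4.41% of all genes called lower. ATF4 mRNA was the most abundant, with 530.0 and 606 TPM at 34 h, 577 and 557 at 42 h, 520.4 and 581 at 50 h, then 420.5 and 409 at 72 h. Its libraries overlapped up to 50 h, and the 72 h mean was 75.3% of that at 50 h (-0.41 ± 0.09, limma adjusted p 0.0336). ATF4 is controlled largely at translation, which these data do not measure. ATF5, a close relative of ATF4 (chromosome 19, 49928702 to 49933935, plus strand), had 72.2 and 72.4 TPM at 34 h, 59.7 and 55.6 at 42 h, 57.1 and 53.4 at 50 h, then 24.1 and 27.4 at 72 h. The fall from 50 h was -1.07 ± 0.11 (0.00104; -1.21 and -0.93 in replicates 1 and 2). ATF3, an early stress-induced factor, had 26.7 and 29.1 TPM at 50 h, then 15.2 and 16 at 72 h (-0.80 ± 0.13, 0.00864).

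DDIT3, which encodes the pro-apoptotic factor CHOP, had 17.9 and 24.9 TPM at 34 h, 12.3 and 11.5 at 42 h, 7.49 and 11.2 at 50 h, then 3.33 and 6.52 at 72 h. Each time point lay below the one before it without overlap, but replicates spread widely. At 50 h against 34 h the change was -1.12 ± 0.29 (limma adjusted p 0.0644), and it passed with the replicate block (0.0250). It also passed without either 72 h library and with a filter at a mean of 5 TPM, at 0.0250 to 0.0465 over these 4 fits. From 50 h to 72 h the change was -0.83 ± 0.29 (0.137). DDIT3 (57516588 to 57521737) and MARS (57475445 to 57517569) overlap at their ends on opposite strands of chromosome 12, and whether counting used the strand is not given in the sources used here.

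CEBPB and CEBPG, C/EBP partners of ATF4, did not pass at 42 h, at 50 h or from 50 h to 72 h; CEBPB was called at 72 h against 34 h, the contrast that chose the members (-1.09). CEBPB had 17.6 and 19.4 TPM at 34 h, 18.5 and 14.3 at 42 h, 11.9 and 11.5 at 50 h, then 7.26 and 9.22 at 72 h (-0.47 ± 0.17 from 50 h, limma adjusted p 0.152). CEBPG lay between 24.7 and 33.1 TPM in all libraries (-0.26 ± 0.12, 0.264). The 72 h call of ATF4 was lost in 9 alternatives (adjusted p 0.0582 to 0.165), those without either 42 h library, replicate 2 at 50 h or either 72 h library among them. That of ATF3 was lost without replicate 2 at 50 h, without replicate 1 at 72 h and with the time points alone (0.0532 to 0.0743).

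Of the 5 members that had fallen by 50 h, 3 were stress effectors, from a group of 4, beside 2.74% of all genes called lower. TARS and MTHFD2 were the others. Summed, the 4 effectors had 194 and 211 TPM at 34 h, 154 and 138 at 42 h, 112 and 106 at 50 h, then 77.8 and 93.4 at 72 h. DDIT4, which encodes REDD1, an inhibitor of mTORC1 (chromosome 10, 72273920 to 72276036, plus strand), had 97.1 and 117 TPM at 34 h, 63.6 and 59.0 at 42 h, 48.0 and 46.4 at 50 h, then 53.9 and 65.8 at 72 h. It was the 1 member called at 42 h (-0.79 ± 0.13, limma adjusted p 0.0193), with -0.60 and -0.97 in replicates 1 and 2, and was lower still at 50 h against 34 h (-1.16 ± 0.13, 0.00172). Alone among the 45, DDIT4 had both 72 h libraries above both 50 h libraries (0.33 ± 0.13, 0.188), a difference that did not pass. Its 42 h call was lost without replicate 2 at 34 h, without either 42 h library, with the time points alone, without the filter and without a mean trend (0.0537 to 0.154).

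CHAC1 (chromosome 15, 40952962 to 40956519, plus strand) encodes an enzyme that degrades glutathione and is a sensitive target of ATF4. It had 56.9 and 53.0 TPM at 34 h, 48.4 and 41.5 at 42 h, 29.7 and 27.3 at 50 h, then 7.12 and 7.99 at 72 h. The time points did not overlap, and the 72 h mean was 26.5% of that at 50 h. The log2 changes were -0.92 ± 0.13 for 50 h against 34 h (limma adjusted p 0.00435) and -1.79 ± 0.13 for 72 h against 50 h (0.000237), and both calls held in all 18 alternatives. TRIB3, a pseudokinase that feeds back on ATF4 and CHOP, had 9.18 and 8.59 TPM at 34 h, 8.71 and 7.53 at 42 h, 4.40 and 4.99 at 50 h, then 2.30 and 2.42 at 72 h. The changes were -0.80 ± 0.16 at 50 h against 34 h (0.0272) and -0.76 ± 0.16 at 72 h against 50 h (0.0300); at such low TPM this scale understates the change.

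SESN2, a leucine-binding inhibitor of mTORC1 signalling, was level to 50 h, at 27.0 to 33.1 TPM, and had 14.5 and 17.2 TPM at 72 h (-0.82 ± 0.13, limma adjusted p 0.00840). The 50 h call of TRIB3 was lost without any 1 library of 34 h or 50 h and in 2 other fits (0.0666 to 0.143), and its 72 h call without any 1 library of 34 h, 50 h or 72 h and in 2 other fits (0.0541 to 0.152). The SESN2 call was lost without replicate 1 at 72 h and with the time points alone (0.0744 and 0.0658).

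**Figure D3:**
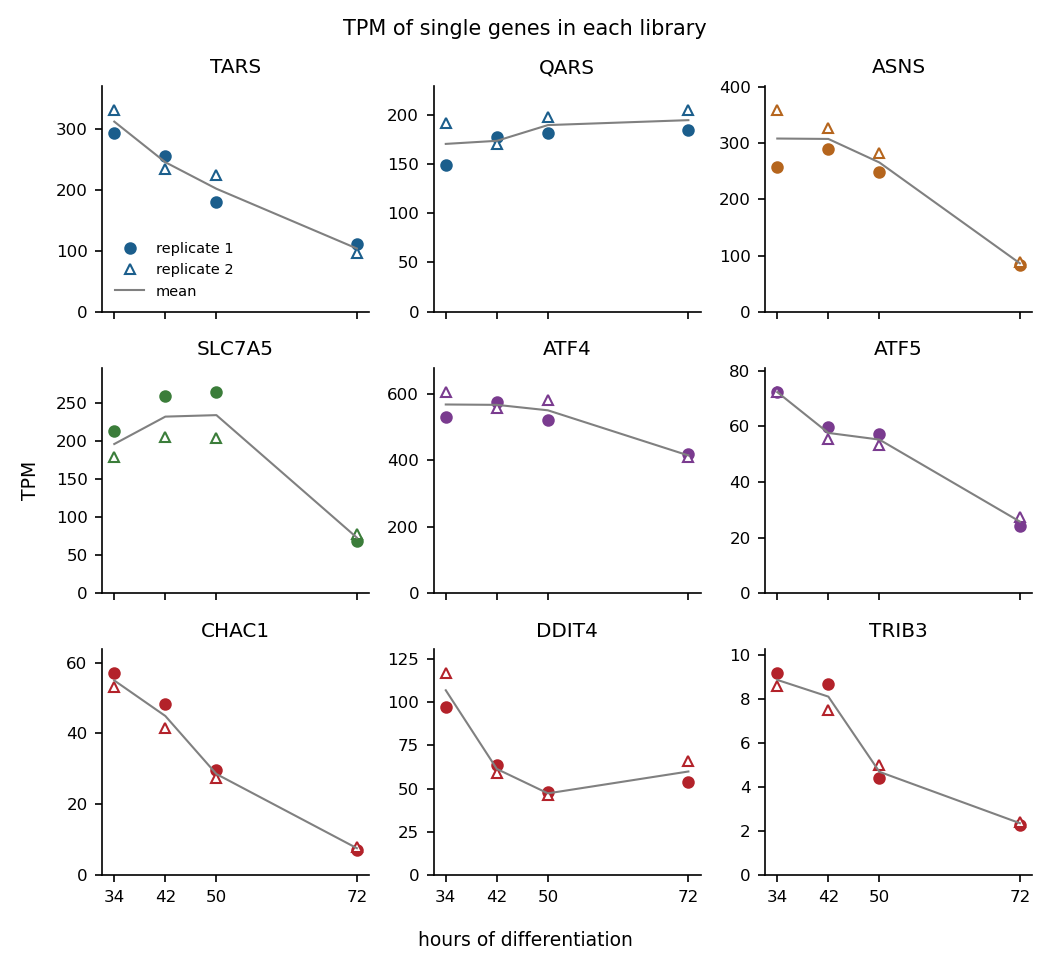
TPM of 9 members in each library against hours of differentiation; filled circles are replicate 1, open triangles replicate 2, and the line joins the means. Each vertical axis starts at 0 and has its own range. TARS and CHAC1 step down at every time point. SLC7A5 and ATF4 are level to 50 h and lower at 72 h. ASNS is somewhat lower at 50 h than at 42 h and far lower at 72 h. DDIT4 is lowest at 50 h, and QARS is level.

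Further genes of the pathway were read from lists that are not part of the 45. Among 15 tested further ATF4 targets 7 fell between 50 h and 72 h and 0 rose, with a median log2 change of -0.55. Of all genes 4.41% were called lower, and their median was 0.01. STC2, a secreted glycoprotein, had 40.9 and 41.7 TPM at 50 h, then 9.70 and 11.8 at 72 h (-1.85 ± 0.15, limma adjusted p 0.000461). PCK2, the mitochondrial phosphoenolpyruvate carboxykinase, had 123 and 131 TPM at 34 h, 82.7 and 77.3 at 50 h, then 34.9 and 40.1 at 72 h. It fell by 50 h (-0.66 ± 0.10 against 34 h, 0.00802; 0.0711 without replicate 2 at 34 h) and again between 50 h and 72 h (-1.08 ± 0.10, 0.000889). EIF4EBP1, an inhibitor of cap-dependent translation, had 251 and 205 TPM and then 128 and 150.2 TPM (-0.71 ± 0.14, 0.0191). Its call was lost without replicate 1 at 50 h (0.0831) and without replicate 1 or 2 at 72 h (0.138 and 0.0502), and the count of 7 was as low as 2 with 1 library left out, replicate 1 at 72 h.

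The kinases that phosphorylate eIF2 stand upstream of ATF4. In a list of 14 eIF2 kinases, phosphatase subunits and exchange factor genes 0 were called from 50 h to 72 h (0 at an unadjusted p under 0.05), which is near the 4.41% of all genes called lower. EIF2AK4, which encodes GCN2, the sensor of uncharged tRNA, had 44.6 and 44.0 TPM at 34 h, 24.3 and 28.7 at 42 h, 24.1 and 27.2 at 50 h, then 29.2 and 27.0 at 72 h. It was lower at 42 h than at 34 h (-0.73 ± 0.13, limma adjusted p 0.0220) and at 50 h (-0.77 ± 0.13, 0.00971) and gave no call between 50 h and 72 h (0.13 ± 0.13, 0.601). EIF2AK3, which encodes PERK, had 15.0 and 15.4 TPM at 34 h, then 8.14 and 8.97 at 50 h (-0.77 ± 0.14, 0.0141). The 50 h calls of both kinases were lost without replicate 1 or 2 at 34 h and without replicate 1 at 50 h (0.0619 to 0.0942), and the 42 h call of EIF2AK4 without any 1 library of 34 h or 42 h (0.0561 to 0.140).

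Genes of the other arms of the endoplasmic reticulum stress response, which depend on ATF6 and XBP1, were read from a list of 11. From 50 h to 72 h 0 were called by limma, near the 4.41% of all genes called lower, with 4 at an unadjusted p under 0.05, and the median log2 change was 0.15. Their summed level was 1788 and 1872 TPM at 34 h, 1464 and 1475 at 50 h, then 1653 and 1695 at 72 h, so the lowest point was 50 h. HSPA5, the chaperone BiP, had 305 TPM in both 34 h libraries, 225 and 229 TPM at 50 h, then 258 and 266 at 72 h (-0.43 ± 0.07 from 34 h to 50 h, limma adjusted p 0.0116; 0.0554 to 0.0798 without replicate 1 at 50 h or either 34 h library). Their difference from the members was not tested.

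Metabolic enzymes next to the members gave calls both ways. Of 17 genes of one-carbon, proline and glutamate metabolism outside the 45, 3 were lower at 72 h than at 50 h and 1 was higher. Their median log2 change was -0.03. Of all genes 4.41% were called lower and 7.33% in either direction. With the replicate block 1 of the 17 was lower, OAT. OAT, the ornithine aminotransferase, had 90.0 and 100.0 TPM at 34 h, 132 and 146 at 50 h, then 70.9 and 69.5 at 72 h; it rose to 50 h (0.54 ± 0.10, limma adjusted p 0.0148) and fell to 72 h (-0.98 ± 0.10, 0.00104). The rise of OAT was lost without replicate 1 at 34 h (0.103) and without replicate 2 at 50 h (0.0703). TYMS, the thymidylate synthase, had 178 and 199 TPM at 50 h, then 262 and 252 at 72 h (0.44 ± 0.09, 0.0193), a call lost without replicate 1 at 50 h (0.0767), on leaving out the first or second 72 h library (0.139 and 0.0912), and in 2 other fits (0.0894 and 0.0715). The 72 h call of GOT1, a cytosolic aspartate aminotransferase (-0.43 ± 0.10, limma adjusted p 0.0442), did not hold without any 1 library. It was also lost with the replicate block (0.0566), with the compared time points alone (0.122) and without a mean trend (0.0791).

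**Figure D4:**
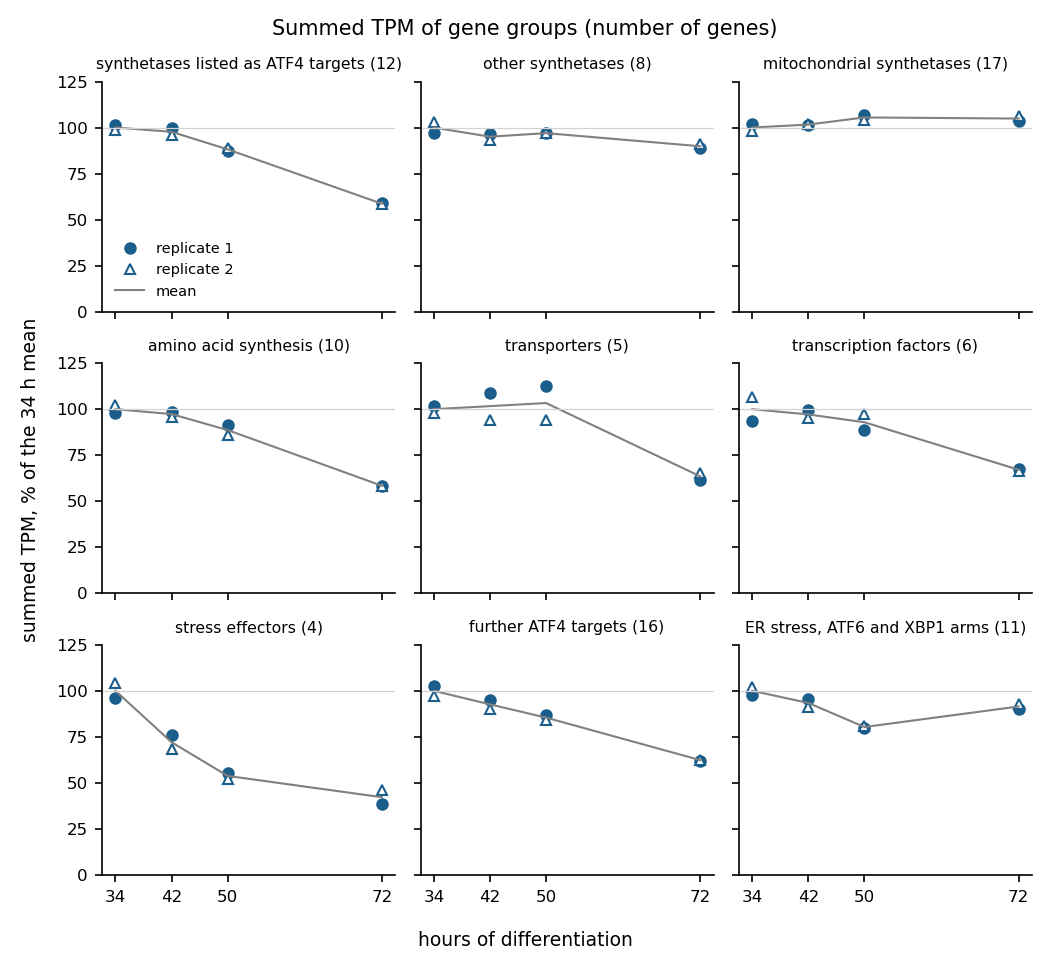
Summed TPM of 9 gene groups in each library, as a percentage of the group's 34 h mean, against hours of differentiation; circles are replicate 1, triangles replicate 2, lines join the means, and the number of genes stands in each title. At 72 h the synthetases listed as ATF4 targets, the amino acid enzymes, the transporters, the transcription factors and the further ATF4 targets lie between 58.4% and 67.1%, the other synthetases at 89.8% and the mitochondrial synthetases at 104.9%.

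Levels of cell type markers also differed between 50 h and 72 h, an interval in which 7.33% of all genes were called in either direction. The 5 pluripotent cell markers summed to 2841 and 2784 TPM at 34 h, 1565 and 1659 at 50 h, then 731 and 776 at 72 h, and 4 of 5 fell from 50 h to 72 h (2 to 4 with 1 library left out). The 5 neural progenitor markers summed to 477 and 469 TPM at 50 h, then 734 and 678 at 72 h, and 4 of 5 rose (1 to 4). The 5 mesoderm and endoderm markers, with SOX17 at 0 in all libraries, summed to 1.18 and 1.51 TPM at 34 h, 14.5 and 10.6 at 42 h, 11.8 and 9.35 at 50 h, then 1.98 and 2.16 at 72 h. They were thus lower in the interval in which the members were lower: of 3 tested, TBXT and MIXL1 fell from 50 h to 72 h, and TBXT without MIXL1 when any 1 library was left out or with the replicate block. The 5 neuron markers summed to 311 and 246 TPM at 50 h, then 183 and 214 at 72 h, of which TUBB3 held 168 to 311 TPM over all libraries. By limma 0 of 3 tested were called in that interval, with 2 at an unadjusted p under 0.05, whereas DCX and STMN2 had risen at 50 h against 34 h, DCX not with the replicate block (adjusted p 0.0561) or without any 1 library of 34 h, 50 h or 72 h (0.0639 to 0.217). Neural crest markers summed to 8.41 and 6.72 TPM at 34 h, 3.28 and 2.38 at 50 h, then 2.27 and 2.99 at 72 h, and FOXD3 fell at 50 h against 34 h. Without either 34 h library FOXD3 did not reach the filter on low values and was not tested. Mitochondrial transcripts held 8.70% to 11.2% of the TPM, and the depth of the libraries is unknown. The part of these shifts in the lower member levels was not tested; with the mitochondrial genes left out the count at 72 h against 50 h was 23 again.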

How the data were processed

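The authors deposited TPM, transcripts scaled by length to a common total, per Ensembl gene, 1 column per library. Salmon 1.9.0 and GRCh38 are named in the submitters' processing notes; the annotation, filters and strand setting are not given in the sources used here. TPM keeps no read number, so depth is unknown and no counting interval was computed. Of 37951 rows, 35940 symbols remained after TPM were summed by symbol. The 14908 genes that reached 1 TPM in 2 or more of the 8 libraries were tested as log2(TPM + 1) with limma 3.58.1 in R 4.3.3: 1 mean per time point, all 8 libraries, variance with a mean trend, two-sided, Benjamini-Hochberg over all genes, called at an adjusted p under 0.05. Changes of low genes come out too small on this scale. The fit was tested on simulated data. With 2 libraries per time point, each gene has 4 residual degrees of freedom. The p-values use a moderated variance, which also draws on the other genes tested.

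The members and all lists were chosen with earlier results of these data known. All 45 members could be named; of each further list, the 3 called genes with the highest absolute log2 change per contrast. The list of further ATF4 targets has 16 genes, of which 15 passed the filter. The labels call the replicate number a batch, which pairs the libraries. Differences between the replicates correlated at 0.0949 (34 and 42 h), 0.195 (34 and 50 h) and 0.142 (42 and 50 h), and at -0.0445, -0.0779 and -0.104 for 72 h with 34, 42 and 50 h. The blocked fit is given where it changes a call stated in the text. Other settings were a pseudocount of 0.1, no filter, a mean of at least 5 TPM, a trimmed mean rescaling, quantile normalization, no mitochondrial genes, no mean trend, the compared time points alone, Ensembl rows apart, and each library left out. Gene positions are from GENCODE v29, promoter windows from RefSeq.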

Additional observations from a re-analysis of the deposited data

How the results depend on the processing

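The 18 alternatives gave the median over all 45 members, AARS included, the same sign in each of the 5 contrasts as the reported fit. With the compared time points fitted alone, 0 members passed at 42 h, 2 at 50 h against 34 h and 12 at 72 h against 50 h, in place of 1, 5 and 23. With all low genes kept, and likewise without a mean trend, 0 passed at 42 h and 3 at 50 h against 34 h. Leaving out 1 library gave 0 to 1 members at 42 h, 2 to 6 at 50 h against 34 h, 0 at 50 h against 42 h and 11 to 21 at 72 h against 50 h. The corresponding medians, with that of 72 h against 34 h last, ranged from -0.055 to -0.0058, -0.15 to -0.11, -0.12 to -0.044, -0.52 to -0.43 and -0.73 to -0.63. Trimmed mean rescaling moved the median of 50 h against 34 h from -0.12 to -0.16. The median of 72 h against 50 h was -0.49 with that rescaling and also with a mean of at least 5 TPM, -0.51 with a pseudocount of 0.1 and -0.45 with quantile normalization, against -0.47. The log2 change of AARS at 42 h, -0.09, lay between -0.22 (without replicate 1 at 42 h) and 0.035 (without replicate 2 at 42 h) with 1 library left out. With the replicate block, which pairs libraries by batch, 1, 6 and 23 members passed in the same 3 contrasts; DDIT3 at 50 h was the one member call it changed there. At 72 h against 34 h, from which nothing is read, the block gave 32 calls in place of 29, beside 24.2% of all genes called in either direction. The synthetase sum was 3349 TPM at 34 h and 2214 at 72 h, and with trimmed mean rescaling 3419 and 2165. The cause of these shifts was not tested. With 2 libraries per time point and no read numbers, small changes of low genes such as SLC1A4 and TRIB3 are poorly resolved.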
